A study of Mus musculus with 41 samples.

Results

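H3K27me3 was compared between cultured myotubes (MT) and whole gastrocnemius muscle (GAS). Each was represented by 1 pooled peak list made from 2 of the 41 samples of the series, so that 4 samples and 2 of its 24 lists were described here. Both lists were merged on chromosomes 1 to 19, and every merged region was called shared, MT-only or GAS-only, with an overlap of 1 bp counting as shared. The 17135 MT peaks and 33767 GAS peaks gave 36006 regions. MT were primary myotubes of C57BL/6 mice, differentiated in culture from primary myoblasts (MB) in low serum, and GAS was calf muscle of adult female C57BL/6 mice. No genetic change or treatment distinguished the groups, whose label reads control in both. Nuclei were used for CUT&Tag in both, where a transposase tethered to an antibody cuts and tags the DNA around a histone post-translational modification (hPTM). GAS nuclei came from dounced whole tissue, and they therefore include those of vessels, connective tissue, nerve and leukocytes besides muscle fibres. In such a mixture, a mark on few nuclei and a weak mark on all nuclei cannot be told apart. A myotube culture lacks nerve, load and blood supply, and the sex of the animals that gave the myoblasts was not given in the sources used here.

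H3K27me3 is deposited by Polycomb repressive complex 2 and marks genes that are kept silent. It typically forms broad domains over CpG-rich promoters of developmental regulators, such as homeobox genes, and is removed from lineage genes as cells of that lineage differentiate. In muscle, the myogenic regulatory factors and the genes of the contractile apparatus are the lineage genes, whereas regulators of neural, endodermal or other mesodermal fates remain repressed.

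Upstream sequences of 7 genes to which the results refer are shown as examples of each class, and they do not stand for its other genes. They are the 250 bases before a start site on build GRCm38.p6 (mm10), from RefSeq, written 5′ to 3′ on the gene's strand, with CG dinucleotides in capitals. Hoxa11 (chr6:52245811-52246060, minus strand), Cdkn2a (chr4:89282193-89282442, minus strand) and Acta1 (chr8:123894776-123895025, minus strand) had GAS-only promoters, and these bases lay 100% inside a GAS peak and 0% inside an MT peak. Hoxd9 (chr2:74697513-74697762, plus strand) and Tnfaip6 (chr2:52037863-52038112, plus strand), which stands for the MT-only region of largest signal, had MT-only promoters and lay 100% inside MT peaks and 0% inside GAS peaks. Lhx4 (chr1:155742028-155742277, minus strand) and Pax5 (chr4:44710695-44710944, minus strand) were shared, with 100% of the bases inside peaks of both lists.
Hoxa11: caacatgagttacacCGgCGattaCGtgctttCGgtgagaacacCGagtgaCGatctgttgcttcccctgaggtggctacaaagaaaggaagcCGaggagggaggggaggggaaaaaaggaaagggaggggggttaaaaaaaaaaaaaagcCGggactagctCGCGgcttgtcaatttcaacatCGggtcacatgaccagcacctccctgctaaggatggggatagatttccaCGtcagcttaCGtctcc
Cdkn2a: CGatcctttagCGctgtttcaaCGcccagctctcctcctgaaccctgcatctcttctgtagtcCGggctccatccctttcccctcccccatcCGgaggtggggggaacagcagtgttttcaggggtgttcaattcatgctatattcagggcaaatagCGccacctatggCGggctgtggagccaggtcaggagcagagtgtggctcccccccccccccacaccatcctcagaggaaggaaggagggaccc
Acta1: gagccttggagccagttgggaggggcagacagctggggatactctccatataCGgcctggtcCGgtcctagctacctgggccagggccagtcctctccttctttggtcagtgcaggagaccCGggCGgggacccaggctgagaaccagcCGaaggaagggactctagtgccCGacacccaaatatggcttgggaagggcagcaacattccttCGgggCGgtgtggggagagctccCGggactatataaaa
Hoxd9: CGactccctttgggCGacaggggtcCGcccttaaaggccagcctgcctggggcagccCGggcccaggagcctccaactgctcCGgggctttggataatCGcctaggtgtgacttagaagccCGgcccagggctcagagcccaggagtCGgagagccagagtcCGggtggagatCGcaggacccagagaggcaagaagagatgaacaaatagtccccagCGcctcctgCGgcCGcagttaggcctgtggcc
Tnfaip6: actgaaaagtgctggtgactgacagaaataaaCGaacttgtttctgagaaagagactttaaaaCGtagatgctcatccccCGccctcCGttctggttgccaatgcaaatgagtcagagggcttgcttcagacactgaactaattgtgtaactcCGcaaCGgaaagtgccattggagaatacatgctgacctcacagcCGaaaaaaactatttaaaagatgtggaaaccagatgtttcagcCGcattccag
Lhx4: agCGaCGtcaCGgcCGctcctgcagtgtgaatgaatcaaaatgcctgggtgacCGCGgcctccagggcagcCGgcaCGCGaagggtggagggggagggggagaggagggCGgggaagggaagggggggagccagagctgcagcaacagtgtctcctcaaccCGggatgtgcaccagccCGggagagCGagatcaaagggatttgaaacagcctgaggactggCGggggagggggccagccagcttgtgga
Pax5: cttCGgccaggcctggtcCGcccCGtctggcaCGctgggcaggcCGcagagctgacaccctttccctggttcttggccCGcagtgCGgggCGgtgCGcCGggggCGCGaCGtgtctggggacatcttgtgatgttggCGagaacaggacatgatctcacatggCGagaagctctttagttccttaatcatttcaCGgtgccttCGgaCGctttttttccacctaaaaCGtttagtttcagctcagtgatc
The windows held 13 CG dinucleotides in Hoxa11, 7 in Cdkn2a and 9 in Acta1, against 13 in Hoxd9 and 8 in Tnfaip6, and 14 in Lhx4 and 19 in Pax5. The GC content of the Tnfaip6 window was 44.4%, below the 52 to 66% of the other 6.

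Of the 36006 regions, 8671 (24.1%, 95% Wilson interval 23.6 to 24.5%) were shared, 8042 (22.3%, 21.9 to 22.8%) were MT-only and 19293 (53.6%, 53.1 to 54.1%) were GAS-only. With the MT list reduced to the bases of the GAS list, MT-only regions made up 10.0%. These intervals, like all others given for shares and medians, cover counting error only, because replicates were pooled before peaks were called and no spread between them can be had. A GAS-only region is one where no MT peak was called, which does not show that the mark was absent in MT. By bases the order was another: shared regions held 120 Mb (51.4% of all merged bases), GAS-only regions 61.2 Mb (26.2%) and MT-only regions 52.4 Mb (22.4%). The MT list covered 6.58% of the autosomes and the GAS list 5.27%. In 53.1% of MT peaks and 42.9% of GAS peaks there was an overlap with the other list, and 58.1 Mb were inside both, 35.9% of the MT bases and 44.8% of the GAS bases.

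Shared regions were the widest and GAS-only regions the narrowest. The median width was 9746 bp (95% order-statistic interval 9540 to 9934 bp) for shared, 5007 bp (4947 to 5073 bp) for MT-only and 2591 bp (2575 to 2608 bp) for GAS-only regions. The MT-only median was 8468 bp with the MT list reduced to the bases of the GAS list. MT peaks were themselves wider, with a median of 6105 bp against 2798 bp for GAS peaks. Over 20 kb were 18.2% of shared, 2.09% of MT-only and 0.0726% of GAS-only regions. One MT peak often spanned several GAS peaks. Of the shared regions, 2869 (33.1%) joined 1 MT peak with 2 or more GAS peaks, up to 14 of them, whereas 106 (1.22%) joined 1 GAS peak with 2 or more MT peaks. MT peaks filled 91.3% of the bases of shared regions and GAS peaks 57.1%.

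With the 5000 peaks of largest total signal from each list, 7300 regions resulted. Shared regions then made up 25.3% (24.3 to 26.3%), MT-only regions 42.2% (41.1 to 43.3%) and GAS-only regions 32.5% (31.4 to 33.6%), so that the order of the one-sided classes was the reverse of that with all peaks. Their median widths were 20279 bp, 14361 bp and 7499 bp, in the same order as with all peaks. The signal of the last MT peak taken was 157346 and that of the first left out 157308, and for GAS these were 37507 and 37506, in units of coverage summed over bases. The deposited signal was not scaled for sequencing depth, and the median mean coverage per base was 14.4 fragments in MT and 5.85 in GAS peaks, so signal was compared within a list only. Against the full list of the other tissue, 3951 of the 5000 strongest MT peaks (79.0%) and 3592 of the 5000 strongest GAS peaks (71.8%) had an overlap, which left 1049 strong MT-only and 1408 strong GAS-only peaks.

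**Figure D1:**
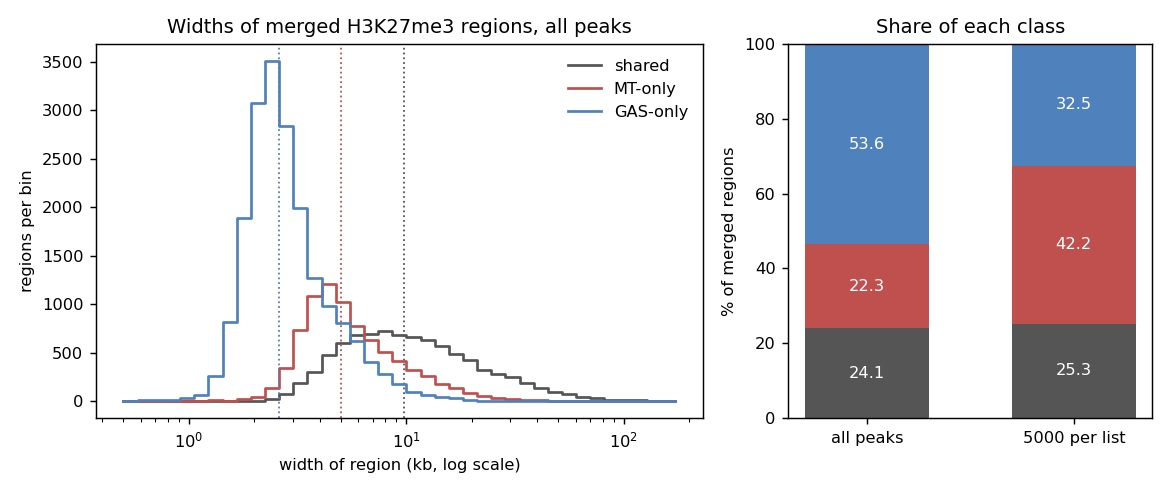
Left, number of merged regions by width (kb, log scale) for each class with all peaks, where dotted lines mark the medians of 2591 bp (GAS-only), 5007 bp (MT-only) and 9746 bp (shared). Right, percent of regions in each class, where GAS-only regions fall from 53.6% with all peaks to 32.5% with 5000 peaks per list.

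Promoters, taken as 2000 bp on each side of every annotated transcription start site (TSS), were touched by 51.1% (50.1 to 52.2%) of shared regions, 25.1% (24.2 to 26.1%) of MT-only and 24.2% (23.6 to 24.8%) of GAS-only regions. Shared regions exceeded GAS-only regions by 27 percentage points (95% Newcombe interval 25.7 to 28.2). At equal width the gap was smaller, with 30.4% (26.6 to 34.4%) of shared and 21.6% of GAS-only regions at 2 to 4 kb, 34.9% (33.2 to 36.7%) of shared and 33.3% of GAS-only regions at 4 to 8 kb, and 52.4% (50.6 to 54.2%) and 44.7% at 8 to 16 kb. From 16 kb up, where 46 GAS-only regions lay, the shares were 75% (73.2 to 76.8%) and 58.7% (44.3 to 71.7%). GAS-only and MT-only regions differed by -0.974 points (-2.11 to 0.143), an interval that includes no difference. With TSS of protein-coding transcripts alone the shares were 11.8% (MT-only) and 14% (GAS-only), and with the MT list reduced to the bases of the GAS list 32.7% and 24.65%. The one-sided classes differed in width, however, and a wider region meets more promoters. Among regions of 2 to 4 kb, which held 11831 of the GAS-only regions, 21.6% (20.9 to 22.4%) of GAS-only and 21.0% (19.3 to 22.8%) of MT-only regions touched a promoter, and below 2 kb 21.5% and 23.0%, so that no difference was detectable there. Among regions of 4 to 8 kb, 33.3% (31.6 to 35.0%) of GAS-only and 22.4% (21.1 to 23.7%) of MT-only regions did so, and among those of 8 to 16 kb 44.7% (40.5 to 49.1%) and 34.0% (31.7 to 36.5%). With 5000 peaks per list and no matching of widths, the shares were 54.4% of MT-only and 47.4% of GAS-only regions. Outside promoters, 33.2% of MT-only regions and 31.3% of GAS-only regions lay in gene bodies, and 41.6% and 44.5% were intergenic.

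CpG-rich promoters, with a GC content from 50% up and a CpG ratio (observed to expected) from 0.6 up within 500 bp of a protein-coding TSS, were counted in the same way. They were touched by 17.6% (16.8 to 18.4%) of shared, 5.58% (5.26 to 5.91%) of GAS-only and 3.67% (3.28 to 4.10%) of MT-only regions. At 2 to 4 kb the values were 9.57% (7.35 to 12.4%), 4.23% (3.89 to 4.61%) and 3.04% (2.4 to 3.85%) in the same order, and at 4 to 8 kb 9.5%, 9.19% and 2.84%. GAS-only regions were thus close to shared ones in the second width range and below them in the first. The median GC content of the regions was 45.8% (shared), 46.1% (GAS-only) and 43.6% (MT-only), all above the 41.9% of the autosomes. Bases masked as repeats made up 25.0% of shared, 22% of GAS-only and 29.5% of MT-only regions, and 32.6% of the autosomes.

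Among genes with shared promoters that also carried H3K4me3, the mark of active or poised starts, fewer lay inside GAS peaks at the TSS than beside it. These are shares over genes, taken from the 5′-most TSS, and they do not show a gap within single genes. Of 1398 such genes with a GAS H3K4me3 peak at the promoter, the share inside a GAS H3K27me3 peak was 65.5% (63.0 to 68.0%) at 2000 bp upstream, 43.3% (40.8 to 46.0%) at the TSS and 61.7% (59.1 to 64.2%) at 2000 bp downstream. In the MT list the same genes went from 74.8% (72.4 to 77.0%) upstream to 68.0% (65.5 to 70.4%) at the TSS and 70.0% downstream. The 1472 shared genes without GAS H3K4me3 had no such dip, with 57.4%, 63.4% and 68.6% in GAS at these positions. Genes with GAS-only promoters followed the same course, from 51.1% at 2000 bp upstream to 36.1% at the TSS for the 1076 with H3K4me3, and from 36.2% to 50.8% for the 980 without.

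**Figure D2:**
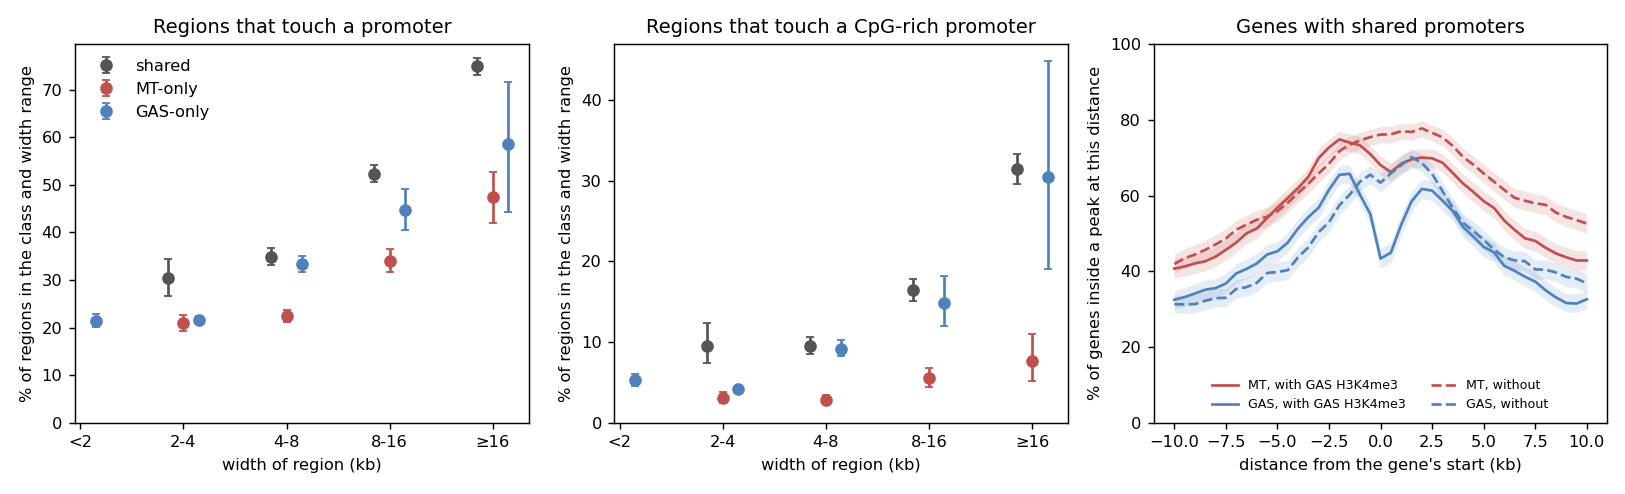
Percent of regions that touch any promoter (left) or a CpG-rich promoter (middle) by width of region, with 95% Wilson intervals, where classes with under 100 regions narrower than 2 kb are not drawn. Right, percent of genes with shared promoters that lie inside an MT or GAS peak at each distance from the 5′-most TSS, by the presence of a GAS H3K4me3 peak, with 95% Wilson bands; the GAS line of genes with H3K4me3 falls to 43.3% at the TSS.

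Of 20807 protein-coding genes, 4113 (19.8%) had an MT peak and 4926 (23.7%) a GAS peak at a promoter. Promoters were shared in 2870 genes (13.8%), MT-only in 1243 (5.97%), GAS-only in 2056 (9.88%) and marked in neither list in 14638 (70.4%). A gene with several start sites counted as shared when each list had a peak at any of them. With 5000 peaks per list, 1174 genes (5.64%) were shared, 1365 (6.56%) MT-only and 794 (3.82%) GAS-only. Of these, 783 of the MT-only and 342 of the GAS-only genes were shared with all peaks, so that a weaker peak of the other list met their promoters. The genes below come from lists of known regulators and markers, and they were chosen because of their function. Where several peaks of a list met a gene's promoter windows, the width, coverage and rank given are those of the peak of largest signal, and the percent of the promoter covered is that inside all of them. The counts below are to be read against these percentages of all genes, which are repeated for some lists only.

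Hox genes, which give cells their position along the body and limb axes, were divided by cluster. The HoxB and HoxD clusters were covered in both, and HoxA and HoxC nearly bare in MT. Over HoxD (106.8 kb with 5 kb on each side) MT peaks covered 99.2% and GAS peaks 69.8%, and over HoxB (183.9 kb) they covered 89.6% and 81.9%. HoxD lies on chromosome 2, of which MT peaks covered 11.4% and GAS peaks 6.52%. On the other autosomes MT peaks covered 4.05 to 8.85%. Over HoxA (115.3 kb), MT peaks covered 4.01% and GAS peaks 34.8%, and over HoxC (125.8 kb) 1.35% and 31.1%. The MB list, made from 1 sample, had the division seen in MT, with 3.8% of HoxA, 78.1% of HoxB, 0% of HoxC and 89.1% of HoxD. Lists of other cells did not have it: embryonic stem cells in serum (mESC-ser) covered 95.7% of HoxA and 97.5% of HoxC, and post-ischemia macrophages from muscle (PIM) 72.1% and 99.4%.

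Of 39 Hox genes, 18 were shared, 12 GAS-only, 2 MT-only and 7 in neither list (13.8%, 9.88%, 5.97% and 70.4% of all genes). With 5000 peaks per list, 16 were shared, 4 GAS-only and 4 MT-only. The 12 GAS-only genes, among them Hoxa5, Hoxa10, Hoxa11, Hoxc4, Hoxc11, Hoxc12 and Hoxc13, were all also marked in mESC-ser and none in MB. Hoxc13, a regulator at the posterior end of its cluster, had a GAS peak of 26292 bp that ranked 93 of 33767 by signal at its promoter windows. That peak ended before the annotated gene and overlapped an MT peak, 3.31 kb from a start, so that it belonged to a shared region although the promoter windows met no MT peak. Hoxc12 had a GAS peak of 14407 bp at rank 262. At the other extreme, the peak of 1945 bp at Hoxa5 ranked 18699 and covered 0.250% of its promoter, so that this call rested on an edge. Hoxd8 and Hoxd9 were MT-only. An MT peak of 63224 bp (rank 25 of 17135, coverage 41.6) covered 100% of the promoter of Hoxd9 and ended inside Hoxd8, where 2 MT peaks together covered 82.2% of the promoter. The nearest GAS peaks were 10.3 kb and 3.47 kb from their starts. Hoxa7, Hoxa9, Hoxc5, Hoxc6, Hoxc8, Hoxc9 and Hoxc10 were in neither list. Of the 7, all but Hoxc8 had GAS H3K4me3, GAS H3K18la and MT H3K18la peaks at a promoter, and all 7 had GAS H3K27ac. H3K4me3 and H3K27ac mark active promoters and enhancers, and H3K18la is lysine lactylation. Over all genes, promoter peaks were called in 64.9% (GAS H3K4me3), 48.8% (GAS H3K27ac), 37% (GAS H3K18la) and 35.8% (MT H3K18la).

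**Figure D3:**
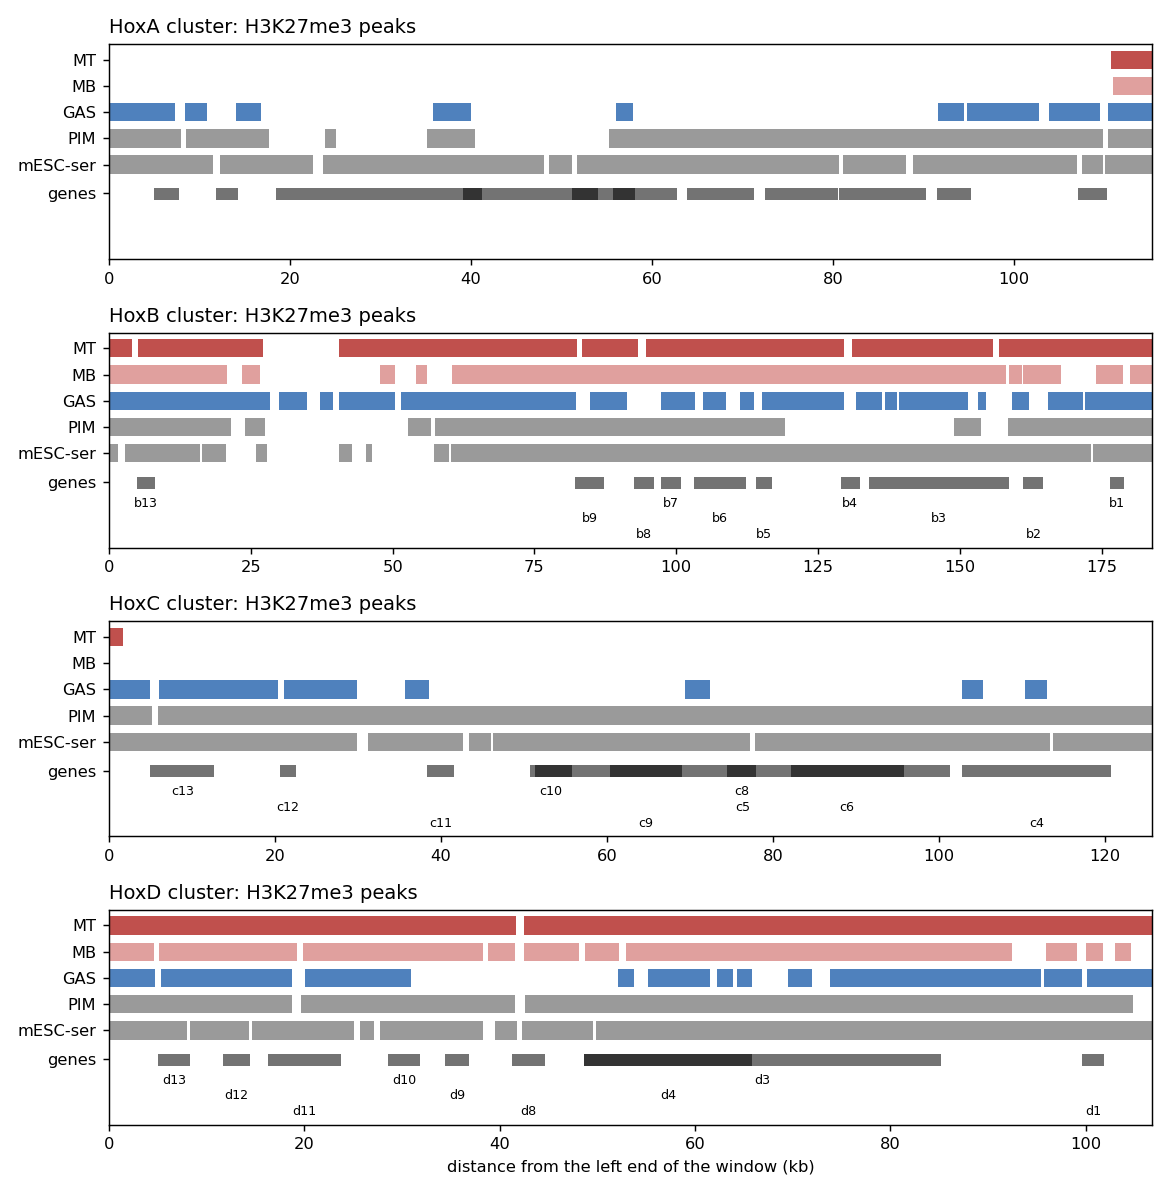
H3K27me3 peaks (bars) of MT, MB, GAS, PIM and mESC-ser over the 4 Hox clusters with 5 kb on each side, against the distance (kb) from the left end of the window, with Hox genes below as annotated from first to last base and named for HoxB, HoxC and HoxD. MT and MB bars fill HoxB and HoxD and are nearly missing from HoxA and HoxC, where MT covers 4.01% and 1.35%.

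Dispersed homeobox genes, regulators of brain, gut and craniofacial development, were marked in both tissues in most cases. Of 46 genes, 34 were shared, 10 GAS-only and 2 MT-only, against 13.8%, 9.88% and 5.97% of all genes. Dlx5 and Dlx6, which pattern the jaw, lay under an MT peak of 49034 bp (rank 89) and a GAS peak of 37545 bp (rank 32). Lhx3, needed for pituitary and motor neurons, had an MT peak of 52494 bp (rank 63) and a GAS peak of 27133 bp (rank 75), and its relative Lhx4 had peaks of 55169 bp (rank 56) and 35325 bp (rank 31). The GAS-only genes were Dlx1, Dlx2, Dlx3, Lhx6, Lhx9, Irx2, Irx3, Irx5, Otx1 and Six2. Lhx6, a regulator of interneurons, had 100% of its promoter bases in a GAS peak of 18722 bp at rank 173, although an MT peak ended 2.37 kb from a start. Nkx2-4 and Nkx6-3 were MT-only. The MT peak at Nkx2-4 was 8659 bp wide and covered 100% of the promoter, with a GAS peak 2.67 kb away.

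Among 18 limb identity genes, 10 were shared, 6 GAS-only and 2 in neither list. Shared were Tbx5, the forelimb selector (MT 21417 bp, rank 824, GAS 34880 bp, rank 42), and also Tbx4 and Pitx1, the hindlimb selectors. Pitx1 had an MT peak of 44419 bp (rank 208) and a GAS peak of 10915 bp (rank 567) in this hindlimb muscle. GAS-only genes included Meis2, Shox2, Msx1, Meis1 and Prrx2. The calls at the last pair were weak, with peaks of 2704 bp (rank 22603) over 1.04% of the Meis1 promoters and 1938 bp (rank 24943) over 15.6% of those of Prrx2, and both genes were in neither list with 5000 peaks per list. The GAS peak at Msx1, a repressor of differentiation, was 16748 bp wide (rank 530) and the nearest MT peak lay 13.5 kb from its start. Of 12 T-box genes listed besides Tbx4 and Tbx5, 7 were GAS-only (Eomes, Tbx1, Tbx2, Tbx3, Tbx15, Tbx18, Tbx20) and 4 shared (T, Tbr1, Tbx19, Tbx21). Tbx20, a heart regulator, had a GAS peak of 21035 bp at rank 106 that covered 100% of its promoter, with the nearest MT peak 70.8 kb away. Tbx3 and Tbx18 were narrow calls of 2193 and 1616 bp.

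Pax genes were marked in both tissues but for Pax3. Pax7, which marks satellite cells, had an MT peak of 28652 bp (coverage 22.5, rank 739) over 100% of its promoter and a GAS peak of 12406 bp (coverage 7.44, rank 956) over 67.5%. Pax3, its paralog in embryonic muscle progenitors, had a GAS peak of 27006 bp (coverage 10.1, rank 61) over 100% of its promoter, and the nearest MT peak was 94.5 kb away. GAS peaks covered 73.3% of the 135.9 kb around Pax3 and MT and MB peaks 0%. This was the GAS-only promoter region of largest signal outside repeats. In both, Pax2 (MT 142118 bp, rank 5), Pax5 (MT 56425 bp, rank 65, GAS 39033 bp, rank 33) and Pax6 (MT 43324 bp, rank 91, GAS 29731 bp, rank 29) were under broad peaks. Of 5 Gata genes, 4 were shared and Gata2 GAS-only. Of 18 Sox genes, 10 were shared, with Sox2 the strongest (MT 53016 bp, GAS 30158 bp). Sox5 and Sox30 were GAS-only (9.88% of all genes) and Sox8 and Sox13 MT-only (5.97% of all genes).

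Myogenic regulators were found in every class, as were genes in general (13.8% shared, 9.88% GAS-only, 5.97% MT-only, 70.4% in neither list). Of 18, 2 were shared (Pax7 and Eya2), 6 GAS-only (among them Pax3, Myod1, Myf6, Eya1 and Msc), 3 MT-only (Mef2b, Mef2c and Mymk) and 7 in neither list (Myf5, Myog, Mef2a, Mef2d, Six4, Eya4 and Mymx). Apart from Pax3, the GAS-only peaks were at most 4536 bp wide and ranked 8132 or lower. Myod1, the myoblast determination factor, had a GAS peak of 2389 bp (coverage 5.33, rank 22178) over 63.6% of its promoter, and the nearest MT peak was 21.7 kb away. Myf6 had one of 1973 bp (rank 33695 of 33767, near the end of the list), with the nearest MT peak 1022 kb away. At Myod1, Myf6 and Eya1 the GAS list of H3K4me3, the GAS list of H3K27ac and the MT list of H3K18la also held a peak at the promoter. Mymk, the fusion protein myomaker, had an MT peak of 12759 bp (coverage 12.2, rank 5056) over 100% of its promoter and an MT H3K18la peak too, with the nearest GAS peak 5.41 kb away.

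Contractile genes were unmarked about as often as genes in general. Of 35 sarcomere and excitation genes, 25 had a peak in neither list (70.4% of all genes), 5 were shared (13.8% of all genes), 3 GAS-only (9.88% of all genes) and 2 MT-only (5.97% of all genes). With 5000 peaks per list, 1 of the 35 was shared, 1 GAS-only and 4 MT-only. GAS H3K27ac was called at 28 (48.8% of all genes) and MT H3K18la at 29 (35.8% of all genes). The markers Des and Myog, and the fast myosins Myh1 and Myh4, were unmarked in both lists, and each had GAS H3K27ac and MT H3K18la peaks. Acta1, skeletal muscle actin, was the GAS-only gene of largest signal among them, with a GAS peak of 6727 bp (coverage 8.62, rank 2326) over 96.9% of its promoter. The nearest MT peak lay 269 kb away, whereas an MB peak of H3K27me3 and GAS peaks of H3K4me3, H3K27ac and H3K18la were present at the same promoter. At Ckm, muscle creatine kinase, the GAS peak was 1337 bp wide (rank 30485) and covered 13.6%. Shared were genes of slow and cardiac fibres, namely Myl2, Myl3, Mybpc3, along with the fast-fibre genes Pvalb and Mybpc2, and among 10 myosin heavy chains Myh6 and Myh7, whose promoters met the same MT peak of 18459 bp (rank 2661) and the same GAS peak of 6814 bp (rank 4817). Myh7b was MT-only, and the other 7 were unmarked. Of 12 neuromuscular junction genes, Chrnd, Chrng and Ache were GAS-only, Colq MT-only and 8 in neither list (70.4% of all genes). Chrng, the fetal acetylcholine receptor subunit that innervated muscle replaces, had a GAS peak of 4667 bp over 90.4% of its promoter, and its neighbour Chrnd one of 9951 bp (rank 1659) over 89.7%. MT had no H3K27me3 peak at either, and it had H3K18la peaks at both.

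Cyclins and cell cycle inhibitors were marked about as often as genes in general. Cdkn2a, which encodes p16 and p19Arf, and Cdkn2b, which encodes p15, were GAS-only. The GAS peaks were 10043 bp (coverage 8.90, rank 1002) over 91.4% of the Cdkn2a promoters and 6993 bp (rank 3255) over 32.1% of that of Cdkn2b. GAS peaks covered 67.4% of the 76.6 kb around both genes and mESC-ser peaks 58.5%, and MT and MB peaks 0%. Cdkn1c, the imprinted inhibitor p57, was MT-only, with a peak of 20530 bp (coverage 21.2, rank 1385) that reached one end of the gene and covered 31.3% of its promoters. A GAS peak lay inside the MT peak, 13.9 kb from the start of Cdkn1c, so that the region was shared although the promoter was not. Ccnd2, a D-type cyclin, was also MT-only (19022 bp, coverage 24.2, rank 1273, over 26.9% of its promoters). Of the 17 cyclins and inhibitors, 12 were in neither list (70.4% of all genes) and Ccna1 was shared. Among 18 Polycomb and demethylase genes 15 were unmarked and 1 was in each other class, with Cbx8 shared and Phf19 MT-only, and none of 10 housekeeping genes had a peak in either list.

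With all peaks, genes of secreted signals were mostly shared or GAS-only, and 1 was MT-only. With 5000 peaks per list, 3 Wnt, 1 Fgf, 2 TGF-β family and 1 Hedgehog gene were MT-only. GAS-only were then 5, 4, 4 and 0 in the same order. Of 19 Wnt ligands, 13 were shared and 5 GAS-only (Wnt2, Wnt5b, Wnt8a, Wnt10b, Wnt16). Wnt6 and Wnt10a shared an MT peak of 152124 bp, rank 3 of the list. Wnt10b, which acts in myogenic against adipogenic fate, had a GAS peak of 10194 bp (rank 1408) over 84.9% of its promoter, and an MT peak lay 12.4 kb away. Of 20 Fgf ligands, 12 were shared and 3 GAS-only (Fgf2, Fgf5, Fgf14). Of 25 TGF-β family ligands and antagonists, 8 were shared, 8 GAS-only and Bmp6 MT-only. GAS-only were the ligands Bmp4, Bmp8a, Gdf5, Gdf7, Gdf11 and Inhba and the antagonists Grem1 and Fst. Inhba, the activin A subunit, had a GAS peak of 10213 bp (rank 1527) over 99.2% of its promoter with the nearest MT peak 1815 kb away. Fst, the antagonist of myostatin, had one of 3336 bp over 51.9%. Hedgehog genes were shared in 6 of 10, with Shh under an MT peak of 32091 bp and a GAS peak of 9663 bp, and Hhip was GAS-only.

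Neuronal genes were marked in 24 of 25 cases in GAS and 20 in MT. The 4 GAS-only genes were Grin2b, Gria1, Slc17a6 and Nefm. Neurog2 and Olig2, which specify neural progenitors, were shared, and Olig2 had an MT peak of 42893 bp (rank 186) and a GAS peak of 19940 bp (rank 112). Of 13 pluripotency and germline genes, 5 were shared and Nanog, Dppa3 and Ddx4 GAS-only. Markers of the other cells of whole muscle were also counted. With all peaks, endothelial markers were shared in 5 of 12 genes and one-sided in 0. One-sided calls among the other marker lists were GAS-only with all peaks, and they came to 2 of 10 leukocyte, 1 of 10 fibroblast, 4 of 10 smooth muscle and pericyte, 1 of 8 adipocyte and 3 of 9 Schwann cell markers, against 9.88% of all genes. With 5000 peaks per list this was not so, as 3 endothelial markers and 1 leukocyte marker were then MT-only, and 1 of each was GAS-only. Pdgfrb and Rgs5, pericyte genes, had GAS peaks of 7467 and 6354 bp over 99.3% and 100% of their promoters. Egr2, a regulator of myelination, had one of 5485 bp. Whole muscle holds these cells, and their part in the GAS list was not tested.

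**Figure D4:**
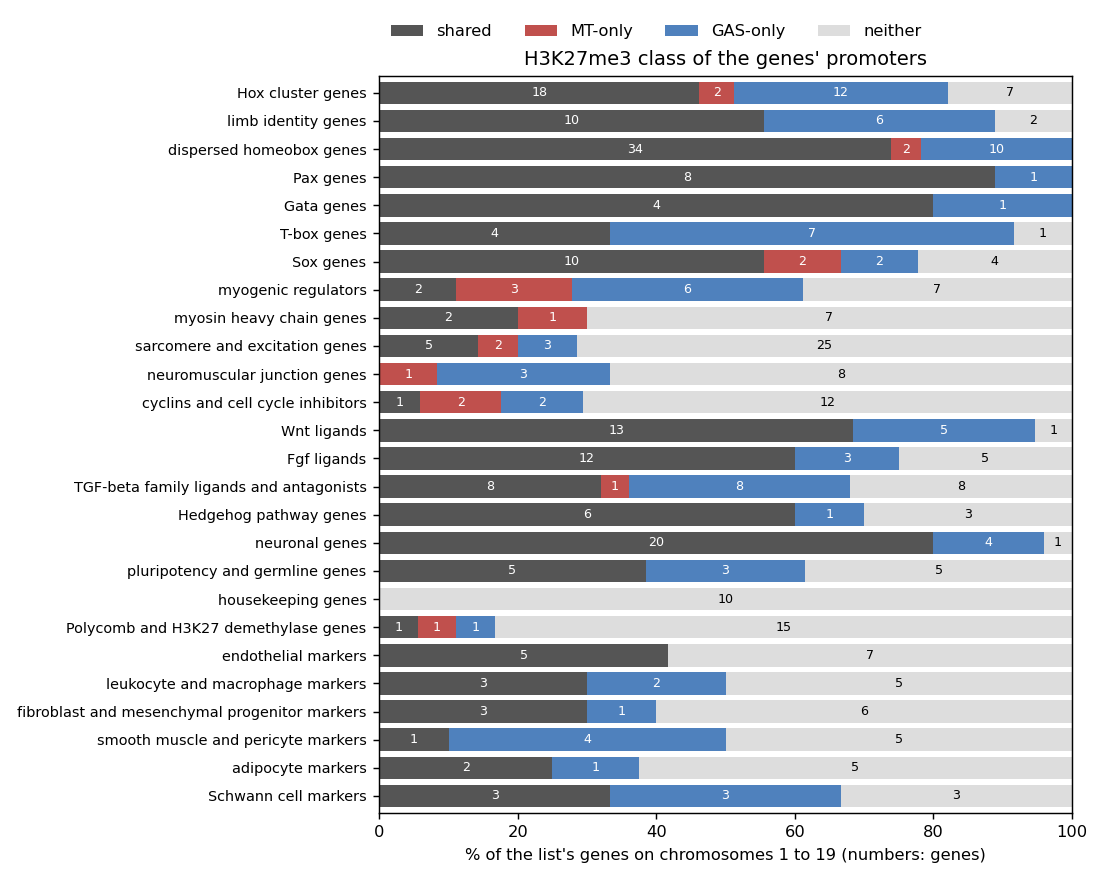
Percent of the genes of each list whose promoters were shared, MT-only, GAS-only or marked in neither list with all peaks, with gene numbers in the bars. Hox genes show 18 shared and 12 GAS-only of 39, T-box genes without Tbx4 and Tbx5 7 GAS-only of 12, and sarcomere genes 25 unmarked of 35.

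Over the 433 genes of all lists, 88 were GAS-only and 17 MT-only with all peaks. With 5000 peaks per list, 43 of the 88 and 7 of the 17 kept their class. Of the 88, 80 had a promoter marked in mESC-ser (27.5% of all genes), 76 in PIM (27% of all genes) and 8 in MB (12.8% of all genes). Over all 2056 GAS-only genes these shares were 58.3%, 56.9% and 5.20%. Of the 17, the numbers were 13, 12 and 11, and over all 1243 MT-only genes the shares were 35.2%, 39.8% and 36.1%. GAS H3K4me3 was called at 70 of the 88 (64.9% of all genes, 52.3% of all GAS-only genes) and 12 of the 17, GAS H3K27ac at 28 and 8 (48.8%), GAS H3K18la at 35 and 8 (37%) and MT H3K18la at 35 and 7 (35.8%). The TSS of the 88 lay at a median of 55.6 kb from the nearest MT peak, within 10 kb of one in 12 genes, whereas 9 of the 17 MT-only genes had a GAS peak within 10 kb. Among larger families taken by symbol, potassium channel genes (Kcn) were shared in 49 of 88, MT-only in 7 and GAS-only in 17, and calcium channel genes (Cacna) shared in 12 of 13. Keratin genes (Krt) were shared in 28 of 54 and GAS-only in 19, and forkhead genes (Fox) shared and GAS-only in 13 each of 41. Olfactory receptor genes (Olfr), which are CpG-poor and silent outside the nose, were marked in neither list in 985 of 1128, and zinc finger genes (Zfp) in 329 of 388.

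Shared regions were ordered by the sum of their ranks for MT signal and for GAS signal. The first spanned 226546 bp on chromosome 2 (chr2:165048130-165274675) and took in the promoters of Cdh22 and Cd40. Next came those at Rhcg (168410 bp), at Wnt6, Wnt10a, Cryba2 and Fev (152124 bp) and at Pax2 (147488 bp). A region at Frmd4a (189300 bp) was made of 1 MT peak and 14 GAS peaks. It was wider than those at Rhcg, Wnt6 and Pax2 and had a larger MT signal, but a lower GAS signal. The first region was wider than it and had more signal in both lists. A cluster of type II keratin genes from Krt1 to Krt79 was under a region of 130892 bp. Among the first 10 regions by this order, which do not include that at Frmd4a, MB peaks filled 52.7 to 87.1% of the bases, and mESC-ser peaks 13.3 to 71.6%. At Frmd4a these were 57.7% and 2.50%.

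The MT-only regions of largest signal lay at genes that belong to none of the lists above, and 5 of the first 10 were on chromosome 2, where MT peaks had the highest median coverage of any autosome. The first, with 78915 bp and a coverage of 40.8, lay at Tnfaip6 and Nmi (chr2:51975369-52054283), an inflammation-induced hyaluronan-binding protein and an interferon-induced gene. Hlf, a circadian transcription factor (68711 bp), Csf2rb and Csf2rb2, cytokine receptor subunits (79158 bp), Mgll, monoglyceride lipase (51119 bp), Acoxl, an acyl-CoA oxidase-like gene (38841 bp), Ifit1, Ifit3b and Ifit1bl2, interferon-induced genes (52714 bp), and Slc1a2, a glutamate transporter (34241 bp), followed among promoters. At Acoxl and Slc1a2 the promoter windows also met a GAS peak outside the region, so both genes counted as shared. GAS H3K27ac over these MT-only domains varied, and over all MT-only bases it was 8.03%. GAS H3K27ac peaks filled 88.5% of the region at Rcsd1 (51037 bp), 50.2% of that at Hlf and 36.7% of that at Prex1, and 0% of those at Tnfaip6 and Slc1a2. MB H3K27me3 filled 88.6% of the Tnfaip6 region and 57.4% of the Hlf region.

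Among GAS-only regions at promoters, those of largest signal included several transcription factor genes. Leaving out Gm11168, in repeats near the start of chromosome 9, those after Pax3 and Tbx20 included Unc13a, a synaptic vesicle gene (22835 bp), Cdc20b (20117 bp), Cth (21484 bp), Onecut2 (16542 bp), Igsf11 (22277 bp), Zic1 and Zic4 (14582 bp), Hoxc12 and Hoxc13 (14407 bp), Eomes (17715 bp) and Foxf2 (13930 bp). Onecut2 counted as shared among genes, since peaks of both lists met its promoter windows. At the Zic1 region mESC-ser peaks filled 97.1% of the bases and MB peaks 0%. At Foxf2 MB peaks filled 55.4%. The GAS-only region of the highest signal was of another kind, with 7270 bp near the start of chromosome 9 (chr9:3011945-3019214), 96.5% masked repeat, a coverage of 72.6 and 100% of its bases inside GAS H3K27ac and mESC-ser H3K27me3 peaks as well. In the GAS list 52 peaks and in the MT list 8 exceeded 10 times the median coverage of their list.

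Other lists separated the classes further. MB H3K27me3 overlapped 57.9% of shared, 25.3% (24.4 to 26.3%) of MT-only and 2.38% (2.18 to 2.61%) of GAS-only regions, and MT-only exceeded GAS-only regions by 22.9 points (22 to 23.9). In the lists of other origins the order of the one-sided classes was the reverse. PIM overlapped 12.8% of MT-only and 22.5% of GAS-only regions, bone marrow-derived macrophages (BMDM) 13.2% and 18.6%, mESC-ser 12.9% and 24.8%, and stem cells in 2i medium (mESC-2i) 21.2% and 32.6%. GAS-only regions had the larger overlap although they were narrower. The same order held in bases, with mESC-ser inside 6.24% of the MT-only and 19.6% of the GAS-only bases.

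Marks of activity were also set against the classes. GAS H3K27ac overlapped 13.7% (12.9 to 14.4%) of MT-only and 4.92% (4.63 to 5.24%) of GAS-only regions, a difference of 8.73 points (7.93 to 9.55), and GAS H3K18la 12.0% and 5.51%. MT H3K18la overlapped 4.39% of MT-only and 10.9% of GAS-only regions, a difference of -6.54 points (-7.16 to -5.90). MB H3K18la overlapped 0.236% and 4.73%. The H3K27ac and H3K18la lists of GAS and the H3K18la list of MT thus overlapped the regions that were one-sided for the other tissue more often. GAS H3K4me3 had the opposite order, with 6.71% of MT-only and 8.24% of GAS-only regions, a difference of -1.53 points (-2.19 to -0.843), and 1.64% and 3.50% of the bases. By bases, GAS H3K27ac filled 8.03% of MT-only and 3.03% of GAS-only bases, GAS H3K18la 5.38% and 3.02%, and MT H3K18la 1.74% and 7.02%. Of the 2463 Mb of the autosomes, these lists covered 196 Mb, 122 Mb and 135 Mb in the same order. For both GAS lists, MT-only bases were thus near the share over the autosomes, and GAS-only bases below it. For MT H3K18la, MT-only bases were below that share and GAS-only bases above it. For promoters of genes, the MB list marked 36.1% of MT-only and 5.20% of GAS-only genes, and MT H3K18la 22.8% and 30.8%.

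**Figure D5:**
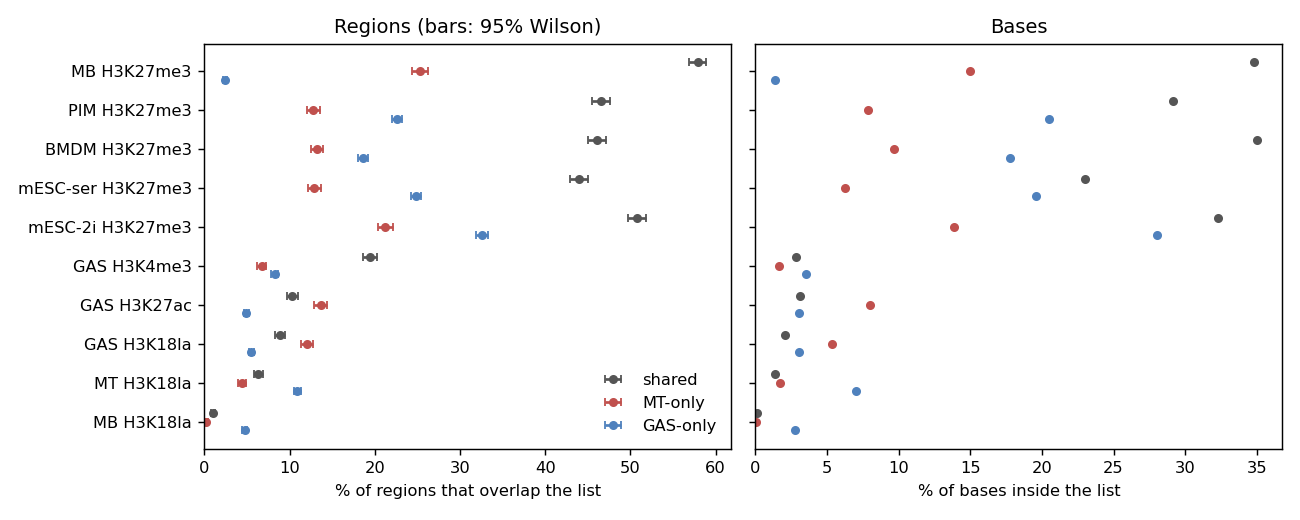
Percent of regions of each class that overlap another peak list of the series (left, with 95% Wilson intervals) and percent of their bases inside it (right). GAS-only regions overlap MB H3K27me3 in 2.38% and mESC-ser H3K27me3 in 24.8%, and MT-only regions in 25.3% and 12.9%.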

How the data were processed

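H3K27me3 CUT&Tag of MT and GAS (2 samples each) was analysed from the deposited peak lists. The authors trimmed reads with Trim Galore 0.6.6, aligned them to mm10 with Bowtie2 2.4.4 and computed coverage with bedtools 2.30. They merged replicates and called peaks with SEACR 1.3 in stringent mode, keeping a fixed top fraction of called peaks. The number of peaks in a list is therefore not by itself a measure of the extent of the mark. The deposited signal is fragment coverage summed over the bases of a peak. All its values were whole numbers (0 exceptions), so it was not scaled for depth and was compared only within a list. Sequencing depth is not given by the lists, and the reads per sample that the study tabulates were not used here. Total in-peak signal was 2936 (MT) and 852 (GAS) megabases of coverage, and depth and class cannot be told apart.

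Peaks of chromosomes 1 to 19 were merged and classed with Python 3.11.15, numpy 2.4.6, pandas 2.3.3 and scipy 1.17.1, which was tested on simulated intervals against bedtools. Promoters came from GENCODE M21 (coordinates of mm10). Each list is 1 pooled set, so no test between groups was made. Shares carry Wilson and differences Newcombe intervals, which cover counting error only. Of the protein-coding genes, 15704 of 20807 matched the RefSeq promoter table by symbol. It holds no entry for Pax3, Myod1 and Cdkn1c. Named regions were the 10 of largest signal and the 10 widest of each class, the same for the 5000 strongest peaks against the full other list, and genes were listed by function. Some genes among these are not reported here. Members and lists were chosen with earlier results of these data known.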

Additional observations from a re-analysis of the deposited data

How the results depend on the processing

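The cause of the shifts below was not tested unless the setting shows it. With 5000 peaks per list, the shares became 25.3% shared and 42.2% MT-only, the promoter shares 78.3% (shared), 54.4% (MT-only) and 47.4% (GAS-only), the median widths 20280, 14360 and 7499 bp, and the genes with shared and GAS-only promoters 1174 and 794. Counting as shared only regions where 50% of the bases of the smaller list lie in the other gave 23.0% shared, 23.2% MT-only and a MT-only width of 5097 bp. Promoters of 1000 bp on each side gave 46.8%, 21.0% and 19.7%, and TSS of protein-coding transcripts alone 35.4%, 11.8% and 14%, in the order shared, MT-only, GAS-only, and the latter setting put GAS-only above MT-only. Settings added after seeing the data were as follows. The MT list reduced to the bases of the GAS list gave 19.6% shared and 10.0% MT-only, promoter shares of 58.8% (shared) and 32.7% (MT-only), and widths of 12790, 8468 and 2628 bp. Peaks joined across gaps of up to 3000 bp gave 26.3% shared and 22.9% MT-only, promoter shares of 57.2%, 26.5% and 25.8%, and widths of 13890, 5290 and 2804 bp. Leaving out peaks over 10 times the median coverage or under 1000 bp kept all values within their intervals or, for genes, within 1.5 times. In all, 38 of 72 values stayed within these bounds, and widths kept their order throughout.

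The planned reduction of the GAS list to the bases of the MT list was not run, because the GAS list covers fewer bases. No paired analysis was possible because replicates were pooled in each list, and for the same reason leaving out a replicate was not run. A class rests on the presence of a called peak, and the part of depth in weak calls was not tested.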

Other observations

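The classes were not spread evenly over chromosomes. Chromosome 2 had the lowest share of GAS-only regions (43.9%) and the highest share of shared ones (29.2%), and MT peaks covered 11.4% of it against 4.05 to 8.85% of the other autosomes. The median mean coverage of MT peaks was also highest there, with 15.6 fragments per base against 13.5 to 14.8 elsewhere, whereas in GAS it was 5.88, inside the range of 5.74 to 5.96 over the other autosomes. Chromosome 4 had the lowest share of MT-only regions (15.7%) and the highest of GAS-only regions (62.3%).

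On chromosome X, which was left out of the classes, MT had 1431 peaks (10.8 Mb, 6.23% of its bases on X and the autosomes together) and GAS 2633 peaks (8.41 Mb, 6.09%). In the H3K27me3 lists of MB, PIM, BMDM, mESC-ser and mESC-2i the share was 0.628 to 1.98%.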
